A study of Mus musculus with 16 samples.

Results

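The interferon-stimulated genes described here are a list of 41 mouse genes that interferons are known to induce, taken by name and followed across the lungs of 16 mice. A gene counted as measured where the array carried a probe set (the group of short probes that reads 1 transcript) annotated to that gene alone, and the brightest such probe set by its mean over the 16 arrays was used. By that rule 38 of the 41 members were measured, out of 12393 genes measured in all. The other 3 members, Isg15, Ifi44 and Xaf1, had no such probe set and are not described further. The mice were adiponectin-deficient or wildtype, the background strain was C57BL/6, and their average age was 14 weeks. Mice of each genotype breathed either 0.3 ppm ozone or room air for 72 h, and total RNA of the left lung was read on 1 Affymetrix array per mouse. The 4 groups were deficient ozone, deficient air, wildtype ozone and wildtype air, each of 4 mice, 2 males (M1, M2) and 2 females (F1, F2). Values of a group are always given in that order of mice.

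Adiponectin is a hormone secreted by fat cells. The labels give the deficiency without naming the part of the gene removed. The array that is wildtype ozone F1 by its title, source and exposure fields is called an air-exposed mouse in its free description, and was kept in the ozone group. All values are intensities deposited by the authors after RMA, a method that removes background, puts the arrays on a common scale and combines the probes of a probe set. They were taken here to log2, so that a log2 difference of 1 is a doubling. A difference was called where the adjusted p of limma (a linear model fitted to all genes, with Benjamini-Hochberg adjustment over the 12393 genes) was under 0.05. The p-values measure the spread between single mice within groups, pooled over all groups in the fit. Unless the compared groups were fitted alone, a genotype was therefore not judged by its own spread. Igtp, for example, had an SD of 0.66 in deficient ozone mice and 0.16 in wildtype ozone mice. Its ozone difference nevertheless had a standard error of 0.20 in each genotype.

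Interferons are cytokines that signal through cell-surface receptors, Janus kinases and STAT transcription factors. Type I interferons act mainly through the interferon-stimulated response element (ISRE), bound by a complex that contains STAT2 and IRF9, while interferon gamma acts mainly through the gamma-activated site (GAS). The genes induced include antiviral effectors such as the IFIT, OAS and MX proteins, sensors of viral RNA, the IRF transcription factors, large GTPases that act on membranes around intracellular microbes, and the immunoproteasome and peptide transporter that feed MHC class I.

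Promoters of 6 of the members described in this report are printed below, each holding a match to at least 1 motif. They are 4 GTPase genes that were lower after ozone in wildtype mice, Psmb8 and Rsad2. Psmb8 was higher after ozone in deficient mice, and Rsad2 differed between the sexes. Each sequence runs 5′ to 3′ on the strand of the gene, from 250 bases before to 50 bases after an annotated start, from RefSeq (GRCm38.p6). Capitals mark matches, on either strand, to the ISRE core GAAANNGAA or to the GAS motif TTCNNNGAA, and matches may overlap. The windows lie at chr3:142620413-142620712 (+) for Gbp2, chr3:142559794-142560093 (+) for Gbp3 (the first of 2 annotated starts), chr11:58199306-58199605 (+) for Igtp, chr11:48871371-48871670 (-) for Irgm1, chr17:34197945-34198244 (+) for Psmb8 and chr12:26456403-26456702 (-) for Rsad2.
Gbp2: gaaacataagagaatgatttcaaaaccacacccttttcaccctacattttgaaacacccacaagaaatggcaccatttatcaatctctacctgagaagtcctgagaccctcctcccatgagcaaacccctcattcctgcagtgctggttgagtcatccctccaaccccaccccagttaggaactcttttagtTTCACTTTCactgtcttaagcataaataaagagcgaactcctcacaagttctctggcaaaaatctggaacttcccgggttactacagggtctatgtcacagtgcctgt
Gbp3: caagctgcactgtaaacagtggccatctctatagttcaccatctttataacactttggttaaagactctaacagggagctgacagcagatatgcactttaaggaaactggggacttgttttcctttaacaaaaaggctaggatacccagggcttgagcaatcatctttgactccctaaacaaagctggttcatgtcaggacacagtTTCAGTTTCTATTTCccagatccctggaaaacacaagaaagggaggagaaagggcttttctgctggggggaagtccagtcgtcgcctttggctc
Igtp: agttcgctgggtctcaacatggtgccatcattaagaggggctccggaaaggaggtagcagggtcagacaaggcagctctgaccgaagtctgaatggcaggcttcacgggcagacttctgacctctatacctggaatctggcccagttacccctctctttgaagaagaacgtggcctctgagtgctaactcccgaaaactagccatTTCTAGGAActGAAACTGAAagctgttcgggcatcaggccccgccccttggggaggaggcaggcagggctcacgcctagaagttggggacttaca
Irgm1: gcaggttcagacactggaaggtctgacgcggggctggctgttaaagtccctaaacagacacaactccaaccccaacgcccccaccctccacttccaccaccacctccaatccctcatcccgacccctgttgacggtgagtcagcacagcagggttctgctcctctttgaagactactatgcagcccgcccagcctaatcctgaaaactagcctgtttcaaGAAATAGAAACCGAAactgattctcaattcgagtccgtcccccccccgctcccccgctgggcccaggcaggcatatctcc
Psmb8: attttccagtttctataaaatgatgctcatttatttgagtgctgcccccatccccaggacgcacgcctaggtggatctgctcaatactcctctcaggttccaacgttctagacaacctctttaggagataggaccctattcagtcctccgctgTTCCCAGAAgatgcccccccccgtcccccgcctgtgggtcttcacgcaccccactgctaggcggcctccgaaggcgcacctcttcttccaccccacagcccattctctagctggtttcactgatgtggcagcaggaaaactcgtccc
Rsad2: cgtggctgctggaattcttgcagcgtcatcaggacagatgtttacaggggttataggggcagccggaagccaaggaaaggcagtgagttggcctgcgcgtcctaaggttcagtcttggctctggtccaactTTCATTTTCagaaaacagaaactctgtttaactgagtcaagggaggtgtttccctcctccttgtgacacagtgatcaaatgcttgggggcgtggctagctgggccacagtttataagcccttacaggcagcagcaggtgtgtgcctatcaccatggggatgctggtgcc

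In these windows the ISRE core began 58 bases before the start of Gbp2, 34 bases before the start of Igtp and 119 bases before the start of Rsad2. It occurred at overlapping positions 44 and 38 bases before the start of Gbp3, and 30 and 24 bases before the start of Irgm1. Igtp also held the GAS motif, the first of its runs of capitals, 45 bases before the start. The only match in the Psmb8 window was the GAS motif, 97 bases before the start. Windows were at hand for 28 of the 38 measured members. The ISRE core occurred in at least 1 window of 12 of these 28 (42.86%), against 9.76% of the 27025 genes with a window, and the GAS motif in 9 of 28 (32.14%), against 9.55% of all genes. The printed windows are not typical of the called members. Ifi47, Cmpk2, Lgals3bp and Psmb10, described below, had neither motif in their window, and nor did the second window of Gbp3. Ifit2, also described below, had no ISRE core in its 2 windows and the GAS motif in 1 of them. A match describes these letters in this window and says nothing about binding.

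The arrays were alike in scale, with median intensities of 146 to 154 and pairwise correlations of 0.965 to 0.996 over genes. All 16 carried strong signal of the lung markers Sftpc, Scgb1a1, Ager and Cldn5, whose intensities summed to 60185 to 67090. Adipoq, the targeted gene, read 6.36, 6.14, 6.33 and 6.07 log2 units in deficient ozone mice, 6.32, 6.43, 6.97 and 8.82 in deficient air mice, 7.70, 7.77, 7.96 and 8.76 in wildtype ozone mice and 7.19, 8.05, 11.52 and 8.89 in wildtype air mice. The array labelled deficient air F2 lay within the wildtype range, and nothing in the labels says whether the probes lie in the removed part of the gene. Fat markers summed to 5868 on that array and to 7011 on wildtype air F1, against 479 to 1419 on the other 14. Deficient air M2 carried skeletal muscle and squamous epithelium markers (sums of 19066 and 11251, against at most 543 and 1081 elsewhere), and wildtype ozone M2 carried neutrophil markers (39815, against at most 7384 elsewhere). Counts without the first 3 of these arrays are given beside the results below as "without the 3 air arrays".

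After ozone the members split in both directions in deficient mice and were mostly lower, where called, in wildtype mice. In deficient mice 5 of the 38 were higher and 4 lower after ozone than after air, and 29 did not pass. Of all 12393 genes, 15.8% were called higher and 14.6% lower in that comparison. In wildtype mice 1 member was higher, 10 were lower and 27 did not pass, while 19.6% of all genes were called higher and 17.1% lower. The median difference of the members was 0.02 in deficient mice (0.01 over all genes) and -0.12 in wildtype mice (0.03 over all genes). In deficient mice 55.3% of the members and 52.5% of all genes had a difference above 0, and in wildtype mice 34.2% of the members and 55.5% of all genes did. The tissue was bulk lung, so fewer cells of a type and less RNA per cell cannot be told apart in any of these values.

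**Figure D1:**
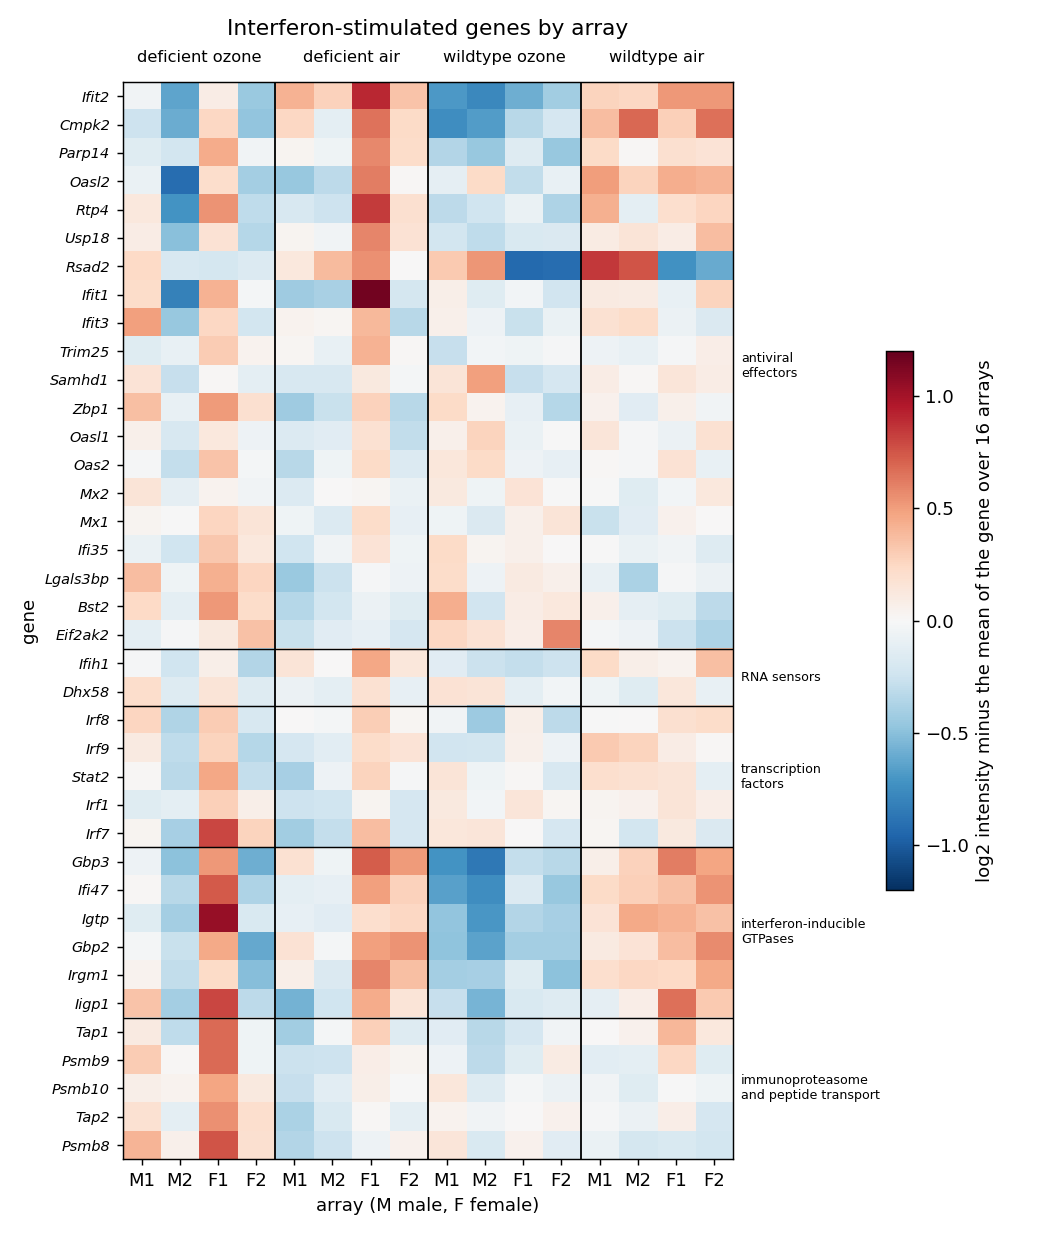
Log2 intensity of each of the 38 measured members (rows, grouped by role) on each of the 16 arrays (columns), minus the mean of that gene over the 16 arrays; red is above and blue below that mean. The interferon-inducible GTPases are blue in the wildtype ozone mice and red in the wildtype air mice, except Iigp1 on wildtype air M1, which is below its mean, and the columns deficient ozone F1 and deficient air F1 are red over most rows.

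The interferon-inducible GTPases had the largest share of called members of any role in wildtype mice. Gbp2 and Gbp3 encode guanylate-binding proteins, and Igtp, Irgm1, Ifi47 and Iigp1 encode immunity-related GTPases, both families that gather on vacuoles holding microbes. In wildtype mice 5 of these 6 were lower after ozone, with a median difference of -0.81 over the 6, where 17.1% of all genes were lower. In deficient mice 1 of 6 was lower, with a median of -0.23, where 14.6% of all genes were lower. Gbp2, Igtp and Irgm1 also passed as lower in deficient mice when certain single arrays were left out.

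Gbp2 read 9.77, 9.53, 10.24 and 9.17 in deficient ozone mice and 9.97, 9.77, 10.29 and 10.33 in deficient air mice. It read 9.31, 9.15, 9.38 and 9.38 in wildtype ozone mice and 9.90, 9.96, 10.16 and 10.36 in wildtype air mice. Every wildtype ozone mouse lay below every wildtype air mouse, while the deficient groups overlapped, with F1 highest and F2 lowest among the deficient ozone mice. The difference in deficient mice, -0.41 ± 0.16 (SE; adjusted p = 0.0705, limma), did not pass. It passed as lower when deficient ozone F1 alone, or deficient air M2 alone, was left out. In wildtype mice Gbp2 was 1.73-fold lower after ozone (-0.79 ± 0.16, adjusted p = 0.00175), and its second probe set gave -0.70.

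Gbp3 read 8.0, 7.57, 8.58 and 7.47 in deficient ozone mice and 8.24, 8.01, 8.79 and 8.58 in deficient air mice. It read 7.35, 7.21, 7.78 and 7.73 in wildtype ozone mice and 8.13, 8.33, 8.68 and 8.53 in wildtype air mice. The wildtype groups were apart and the deficient groups overlapped. Gbp3 fell in both genotypes, by 0.50 ± 0.17 in deficient mice (adjusted p = 0.0417) and by 0.90 ± 0.17 in wildtype mice (adjusted p = 0.00105). The call in deficient mice was lost on leaving out deficient ozone M2 or F2, deficient air M1 or F1 or the array labelled deficient air F2 (adjusted p of 0.0706 to 0.115, limma), and the difference was -0.26 without deficient ozone F2. It was also lost, at an adjusted p of 0.0503 to 0.0521, on leaving out wildtype ozone M1, F1 or F2 or wildtype air M1 or F1, which enter only through the shared spread.

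Igtp read 8.78, 8.52, 9.98 and 8.75 in deficient ozone mice and 8.83, 8.80, 9.13 and 9.17 in deficient air mice. It read 8.45, 8.23, 8.58 and 8.54 in wildtype ozone mice and 9.09, 9.38, 9.35 and 9.28 in wildtype air mice. Deficient ozone F1 stood more than 1 log2 unit above the other 3 mice of its group, and the wildtype groups were apart. Igtp differed by 0.02 ± 0.20 after ozone in deficient mice (adjusted p = 0.941) and fell 1.78-fold in wildtype mice (-0.83 ± 0.20, adjusted p = 0.00426). Without deficient ozone F1, Igtp passed as lower in deficient mice too.

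Ifi47 read 9.80, 9.45, 10.52 and 9.42 in deficient ozone mice and 9.66, 9.68, 10.28 and 10.06 in deficient air mice. It read 9.14, 9.04, 9.62 and 9.33 in wildtype ozone mice and 10.01, 10.07, 10.13 and 10.32 in wildtype air mice. Here too the deficient groups overlapped and the wildtype groups did not. The difference was -0.12 ± 0.17 in deficient mice (adjusted p = 0.626) and -0.85 ± 0.17 in wildtype mice (adjusted p = 0.0014).

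Irgm1, whose product is a regulator of the other immunity-related GTPases, read 8.78, 8.44, 8.97 and 8.23 in deficient ozone mice and 8.80, 8.56, 9.32 and 9.10 in deficient air mice. It read 8.33, 8.34, 8.60 and 8.25 in wildtype ozone mice and 8.94, 8.99, 8.97 and 9.20 in wildtype air mice. The difference was -0.34 ± 0.15 in deficient mice, where the groups overlapped (adjusted p = 0.103), and -0.65 ± 0.15 in wildtype mice, where they were apart (adjusted p = 0.00422). Without deficient air M2, Irgm1 passed as lower in deficient mice too. Iigp1, the sixth GTPase, differed by 0.16 in deficient mice (adjusted p = 0.619) and by -0.53 in wildtype mice (adjusted p = 0.0584). Its second probe set passed in wildtype mice (-0.52, adjusted p = 0.0132 over all probe sets).

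**Figure D2:**
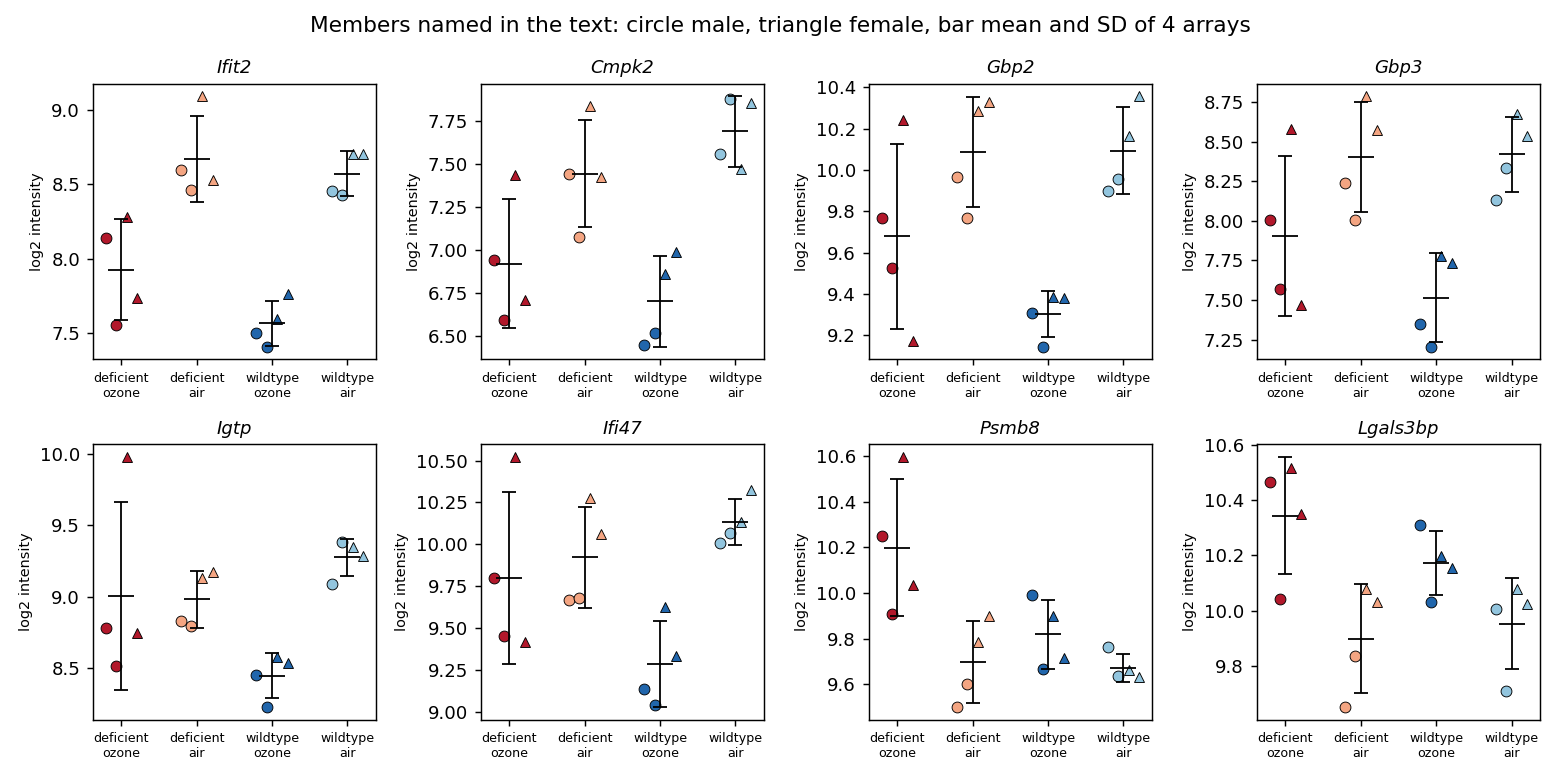
Log2 intensity of 8 members in each mouse (circles males, triangles females), with the mean and SD of the 4 mice of each group as bars. For Gbp2, Gbp3, Igtp and Ifi47 all 4 wildtype ozone mice lie below all 4 wildtype air mice, while the deficient groups overlap.

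Markers of T and NK cells moved in the same comparison. In deficient mice 1 of the 12 measured markers was higher after ozone and 1 lower (median 0.02), where 15.8% of all genes were higher and 14.6% lower. In wildtype mice 0 were higher and 6 lower (median -0.43), where 19.6% of all genes were higher and 17.1% lower. Among the 6 were Gzma (-1.10), Klrd1 (-1.04) and Prf1 (-0.76), genes of cytotoxic cells. Their summed intensity ran from 1582 to 2731 in deficient ozone mice, 1722 to 2662 in deficient air mice, 1342 to 1636 in wildtype ozone mice and 2118 to 2502 in wildtype air mice. Deficient ozone F1, the highest array of its group for all 6 GTPases, also had the highest sum of these markers. The lowest intensity of any probe set was 11.1, so a value above 0 does not by itself show that these cells were present. B cell markers were lower for 2 of 5 in deficient mice and for 2 of 5 in wildtype mice, against the same 14.6% and 17.1% of all genes. The part of these cells in the GTPase differences was not tested.

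Of the antiviral effectors 20 were measured. In deficient mice 2 of the 20 were higher and 2 lower after ozone, where 15.8% of all genes were higher and 14.6% lower. In wildtype mice 1 of the 20 was higher and 4 were lower, where 19.6% of all genes were higher and 17.1% lower. None of these shares stood above that of all genes by more than 1 member. Ifit2, an IFIT protein that binds RNA, was the member with the smallest p in each genotype.

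Ifit2 read 8.14, 7.55, 8.28 and 7.74 in deficient ozone mice and 8.60, 8.46, 9.09 and 8.53 in deficient air mice. It read 7.50, 7.41, 7.59 and 7.76 in wildtype ozone mice and 8.45, 8.43, 8.70 and 8.70 in wildtype air mice. Ozone and air mice were apart in both genotypes. Ifit2 fell 1.67-fold in deficient mice (-0.74 ± 0.14, adjusted p = 0.000876) and 2.01-fold in wildtype mice (-1.0 ± 0.14, adjusted p = 8.29e-05), and it passed under all 30 alternatives tried in each genotype. Ifit3, its neighbour on chromosome 19, differed by -0.01 in deficient mice (adjusted p = 0.966) and by -0.12 in wildtype mice (adjusted p = 0.625).

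Ifit1, the family member most often used as a marker of type I interferon, read 8.27, 7.24, 8.46 and 8.03 in deficient ozone mice and 7.62, 7.66, 9.20 and 7.84 in deficient air mice. It read 8.11, 7.90, 8.02 and 7.81 in wildtype ozone mice and 8.15, 8.15, 7.96 and 8.32 in wildtype air mice. Deficient air F1 stood more than 1 log2 unit above its group, and no pair of groups was apart. The difference after ozone was -0.08 (95% interval -0.68 to 0.52) in deficient mice and -0.18 (-0.78 to 0.41) in wildtype mice, and neither passed (adjusted p = 0.86 and 0.64).

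Cmpk2, a nucleotide kinase of mitochondria, read 6.94, 6.59, 7.44 and 6.71 in deficient ozone mice and 7.44, 7.08, 7.84 and 7.42 in deficient air mice. It read 6.45, 6.52, 6.86 and 6.99 in wildtype ozone mice and 7.56, 7.88, 7.47 and 7.85 in wildtype air mice. The wildtype groups were apart, and in deficient mice F1 of the ozone group reached into the air group. Cmpk2 fell in both genotypes, by 0.52 ± 0.16 in deficient mice (adjusted p = 0.0252) and by 0.99 ± 0.16 in wildtype mice (adjusted p = 0.000364). Its second probe set moved less, by -0.10 in deficient mice (adjusted p = 0.547) and -0.38 in wildtype mice (adjusted p = 0.0187).

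Of the other effectors, Lgals3bp, a secreted glycoprotein that binds galectin-3, differed by 0.44 in deficient mice (adjusted p = 0.00375, limma) and by 0.22 in wildtype mice (adjusted p = 0.102). Bst2, the tetherin that holds budding virus at the cell surface, differed by 0.41 in deficient mice (adjusted p = 0.0358) and by 0.23 in wildtype mice (adjusted p = 0.204). Both genes passed in deficient mice and had positive values in each genotype. Parp14, an ADP-ribosyltransferase, differed by -0.19 in deficient mice (adjusted p = 0.257) and fell by 0.50 in wildtype mice (adjusted p = 0.00423). Usp18, which removes ISG15 from proteins and restrains the type I receptor, differed by -0.33 in deficient mice (adjusted p = 0.0773) and fell by 0.40 in wildtype mice (adjusted p = 0.0303). Eif2ak2, the RNA-activated kinase PKR, was the only member called higher in wildtype mice (0.45, adjusted p = 0.00772), but its second, dimmer probe set moved the other way (-0.37, adjusted p = 0.0421), so its direction is uncertain. Samhd1, an enzyme that cleaves nucleotides, gave -0.04 by its brightest probe set in wildtype mice. There 2 dimmer probe sets of Samhd1 gave 0.47 and 0.42 and passed. Zbp1, a sensor of Z-form nucleic acids, differed by 0.43 in deficient mice by its brightest probe set and did not pass (adjusted p = 0.0517), while its second probe set passed (0.36, adjusted p = 0.0426). Zbp1 also passed in deficient mice under other settings, among them quantile normalization, array weights and the mean of its probe sets. The remaining members of this role did not pass in either genotype: Oasl1, Oasl2, Oas2, Mx1, Mx2, Rsad2, Rtp4, Ifi35 and Trim25, besides Ifit1, Ifit3 and Samhd1.

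**Figure D3:**
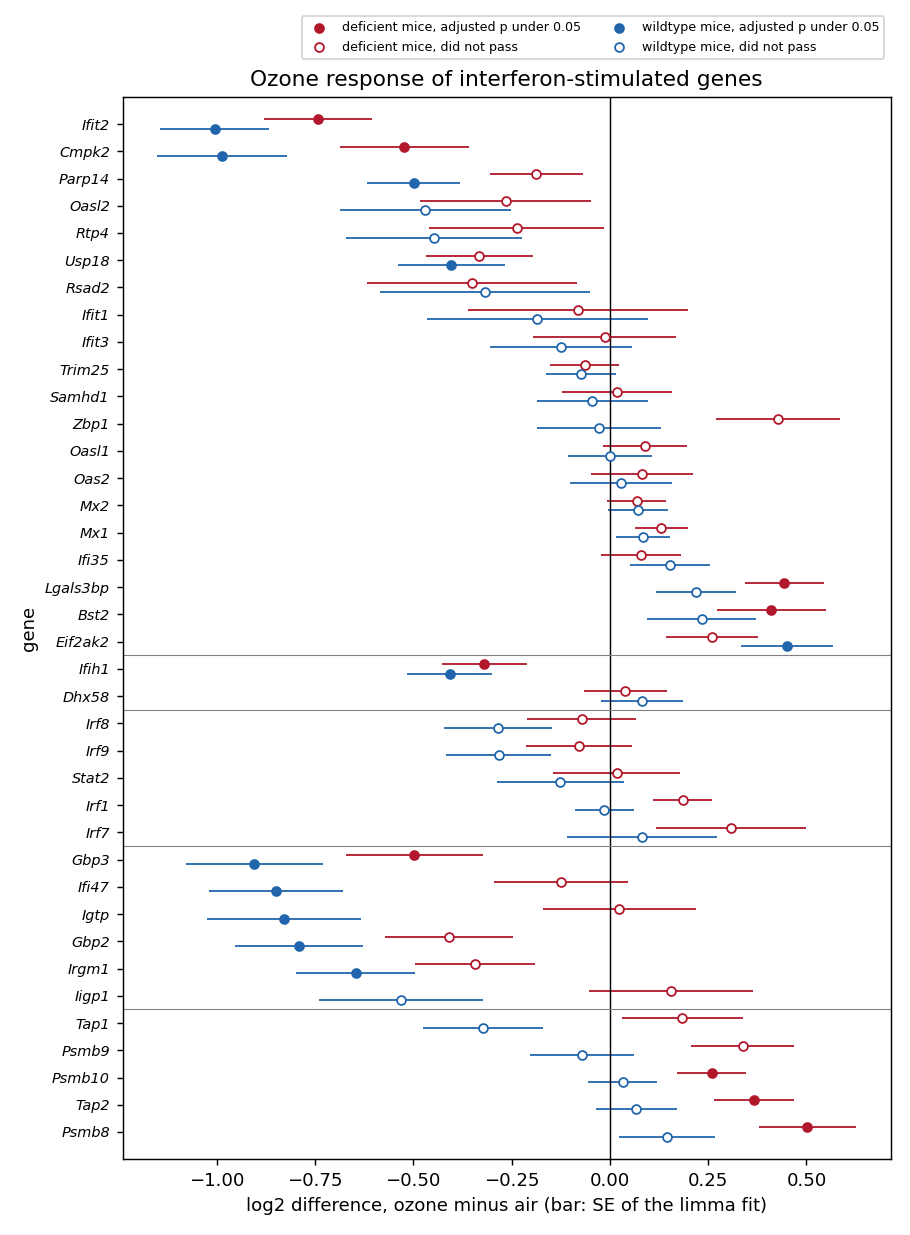
Log2 difference, ozone minus air, of each of the 38 members in deficient mice (red) and wildtype mice (blue), with the standard error of the limma fit as bars; filled points passed an adjusted p of 0.05. Wildtype points of the GTPases lie between -0.90 and -0.53, and the 5 immunoproteasome and transporter members lie above 0 in deficient mice.

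Of the 2 RNA sensors, 1 was called lower in each genotype, where 14.6% of all genes were lower in deficient mice and 17.1% in wildtype mice. Ifih1, which encodes MDA5, the sensor of long double-stranded RNA, fell by 0.32 ± 0.11 in deficient mice (adjusted p = 0.0359) and by 0.41 ± 0.11 in wildtype mice (adjusted p = 0.00881). Dhx58, which encodes the regulator LGP2, differed by 0.04 in deficient mice and 0.08 in wildtype mice and did not pass.

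The 5 transcription factors gave 0 calls in either genotype by limma, and 1 of them, Irf1, had an unadjusted p under 0.05, in deficient mice. Irf7, the factor that amplifies type I interferon, read 7.44, 7.01, 8.21 and 7.68 in deficient ozone mice and 6.99, 7.12, 7.78 and 7.21 in deficient air mice. It read 7.54, 7.56, 7.41 and 7.21 in wildtype ozone mice and 7.43, 7.19, 7.53 and 7.24 in wildtype air mice. Deficient ozone F1 was the highest of the 16 mice, and ozone and air mice overlapped in both genotypes. The difference after ozone was 0.31 ± 0.19 in deficient mice and 0.08 ± 0.19 in wildtype mice. Irf1, a factor downstream of interferon gamma, read 10.16, 10.19, 10.59 and 10.37 in deficient ozone mice and 10.06, 10.07, 10.34 and 10.10 in deficient air mice. It read 10.43, 10.27, 10.45 and 10.33 in wildtype ozone mice and 10.34, 10.36, 10.46 and 10.38 in wildtype air mice. Ozone and air mice overlapped, and deficient air F1 stood above the other 3 of its group. The difference after ozone was 0.19 ± 0.08 in deficient mice and -0.01 ± 0.08 in wildtype mice. Stat2, a signal transducer of type I interferons, read 7.13, 6.79, 7.58 and 6.83 in deficient ozone mice and 6.72, 7.06, 7.38 and 7.11 in deficient air mice. It read 7.28, 7.06, 7.13 and 6.93 in wildtype ozone mice and 7.32, 7.31, 7.28 and 7.0 in wildtype air mice. Its groups overlapped as well. The difference after ozone was 0.02 ± 0.16 in deficient mice and -0.13 ± 0.16 in wildtype mice. Irf8, a factor of myeloid and B cells, and Irf9, the DNA-binding part of the ISRE complex, differed by -0.07 and -0.08 in deficient mice and by -0.28 and -0.28 in wildtype mice.

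Of the immunoproteasome and peptide transporter members, 3 of 5 were higher after ozone in deficient mice (median 0.34), where 15.8% of all genes were higher. In wildtype mice 0 of 5 passed (median 0.03), where 19.6% of all genes were higher and 17.1% lower. Psmb8, Psmb9 and Psmb10 encode the catalytic subunits that replace the standard ones in the proteasome, and Tap1 and Tap2 encode the transporter that carries peptides into the endoplasmic reticulum. Psmb9, Tap1, Psmb8 and Tap2 are consecutive protein-coding genes on chromosome 17, so 4 of these 5 members share a locus.

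Psmb8 read 10.25, 9.91, 10.60 and 10.04 in deficient ozone mice and 9.5, 9.60, 9.79 and 9.90 in deficient air mice. It read 9.99, 9.67, 9.90 and 9.71 in wildtype ozone mice and 9.76, 9.63, 9.66 and 9.63 in wildtype air mice. The deficient groups were apart, with only a small gap, and the wildtype groups overlapped. Psmb8 was 1.42-fold higher after ozone in deficient mice (0.50 ± 0.12, adjusted p = 0.00597) and differed by 0.15 ± 0.12 in wildtype mice (adjusted p = 0.378). Tap2 was higher in deficient mice by 0.37 (adjusted p = 0.0131) and Psmb10 by 0.26 (adjusted p = 0.0355).

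Tap1 read 8.51, 8.10, 9.08 and 8.34 in deficient ozone mice and 7.98, 8.37, 8.69 and 8.25 in deficient air mice. It read 8.26, 8.06, 8.19 and 8.36 in wildtype ozone mice and 8.40, 8.45, 8.80 and 8.52 in wildtype air mice. Its differences had opposite signs, 0.18 ± 0.15 in deficient mice (adjusted p = 0.399) and -0.32 ± 0.15 in wildtype mice (adjusted p = 0.112), and neither passed. Psmb9 differed by 0.34 in deficient mice (adjusted p = 0.0649) and by -0.07 in wildtype mice (adjusted p = 0.706).

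Leaving out arrays moved the calls in deficient mice as follows. Without the 3 air arrays 5 members passed in deficient mice in place of 9, with Bst2, Gbp3, Psmb10 and Tap2 lost, and 11 passed in wildtype mice as before. Without deficient air M1 4 passed, since Bst2, Gbp3, Ifih1, Psmb10 and Cmpk2 no longer passed, and 6 passed without deficient ozone F2. Without the array labelled deficient air F2, 6 passed as well, and Bst2, Gbp3 and Psmb10 were lost. In wildtype mice Usp18 was the only member lost when 1 array was left out (wildtype ozone M2, F1 or F2, or wildtype air M1, M2 or F2; adjusted p of 0.0556 to 0.0776), and 10 to 12 members passed. Of the calls in deficient mice, Ifih1 and Cmpk2 were also lost without deficient ozone M2, without deficient ozone F2 and without deficient air F1, Psmb10 without deficient ozone M1 or F1 or deficient air M2, and Bst2 without deficient ozone M1, F1 or F2 or deficient air M2. Psmb10 was lowest, at 0.17, without deficient ozone F1. When only the deficient mice entered the fit, so that their spread alone was used, Gbp3, Ifih1 and Cmpk2 did not pass. Members were also gained in deficient mice. Usp18, Gbp2 and Igtp passed as lower without deficient ozone F1, and Gbp2 and Irgm1 without deficient air M2. Usp18 also passed without deficient ozone M1, Irf1 without deficient air F1 and Psmb9 without deficient ozone F2. Zbp1 passed without deficient ozone M2, deficient air F1, wildtype ozone M1 or wildtype ozone F2. In wildtype mice 10 members passed without wildtype ozone F1, the mouse with the disagreeing description. Within one sex, which leaves 2 mice per group, 1 member passed among deficient males, 3 among deficient females, 9 among wildtype males and 3 among wildtype females. Gbp2, Gbp3, Igtp, Irgm1 and Ifi47 passed among wildtype males and did not pass among wildtype females. Their wildtype differences were -0.57 or lower under all 30 alternatives, the single sexes included.

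The genotypes were next compared directly. In ozone, 0 members differed between deficient and wildtype mice, against 0.0161% of all genes (2 genes), and 9 of the 38 had an unadjusted p under 0.05, against 11.2% of all genes. In air, 0 members differed, against 0.00807% of all genes (1 gene), and 1 member, Irf1, had an unadjusted p under 0.05 (-0.24 ± 0.08), against 5.91% of all genes. The interaction, the ozone difference in deficient mice minus that in wildtype mice, was called for 0 members and for 0% of all genes, with 5 members (Igtp, Ifi47, Iigp1, Tap1 and Psmb9) and 4.88% of all genes at an unadjusted p under 0.05. Each of these 3 counts was 0 without the 3 air arrays too, so the different calls in the 2 genotypes are not shown to be a difference between them.

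The values of these comparisons leaned one way for the members. The interaction was above 0 for 33 of 38 members (86.8%) and for 48.7% of all genes, with medians of 0.21 over the members and -0.0042 over all genes. It was largest for Igtp, at 0.85 ± 0.28 (95% interval 0.26 to 1.44), Ifi47, at 0.72 ± 0.24, and Iigp1, at 0.69 ± 0.29, each with an adjusted p of 0.983. Tap1 followed at 0.51 ± 0.22. In ozone, Igtp differed between deficient and wildtype mice by 0.56 ± 0.20 (adjusted p = 0.317), Ifi47 by 0.51 ± 0.17 (adjusted p = 0.285) and Psmb8 by 0.38 ± 0.12 (adjusted p = 0.28). The interaction and the 2 ozone differences share their arrays, so these values are not separate evidence.

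Single mice stood high or low over most members in the deficient groups. Deficient ozone F1 was the highest of its 4 mice for 32 of the 38 members, against 23.4% of all genes, and lay on average 0.38 log2 units above the gene means over the 16 arrays. Deficient air F1 was the highest for 35 of 38, against 33.3% of all genes, with a mean of 0.34. Deficient ozone M2 was the lowest of its group for 27 of 38, against 23% of all genes, with a mean of -0.29. In the wildtype groups the mean over the members ran from -0.18 to -0.08 in ozone mice and from 0.06 to 0.12 in air mice. Without both F1 arrays, 15 members passed in wildtype mice, with Oasl2, Rtp4, Iigp1 and Tap1 added, and 9 passed in deficient mice, with Gbp2 and Zbp1 added and Bst2 and Psmb10 lost. The interaction was called for 0 members without them as well.

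**Figure D4:**
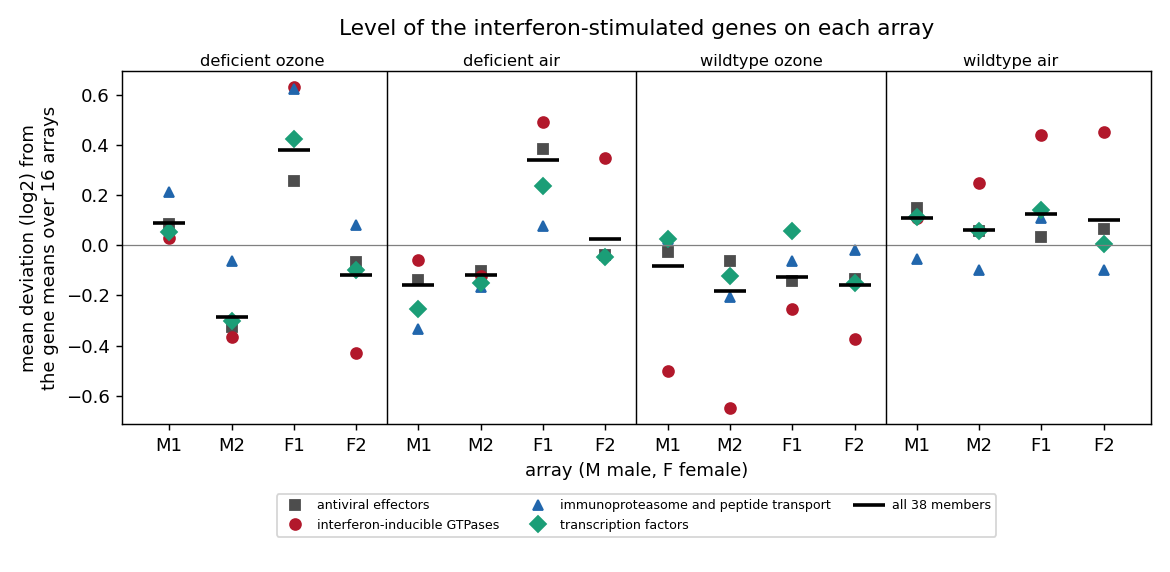
Mean deviation of the members on each array from their means over the 16 arrays (log2 units), for all 38 members (black bars) and by role (points). Deficient ozone F1 and deficient air F1 lie at 0.38 and 0.34 over all members, and the GTPases lie below 0 in all 4 wildtype ozone mice and above 0 in all 4 wildtype air mice.

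Genes upstream of the members were read on the same arrays. Ifng, which encodes interferon gamma, read between 4.11 and 4.39 on all 16 arrays, in the range of the male-specific gene Eif2s3y in female mice (4.11 to 4.46), so its level cannot be told from that of an absent transcript. Of 17 measured interferons, receptors and signalling genes, 6 were higher and 1 lower after ozone in deficient mice, and 3 were higher and 3 lower in wildtype mice. Of all genes, 15.8% were higher and 14.6% lower in deficient mice, and 19.6% were higher and 17.1% lower in wildtype mice. The wildtype counts were near these shares. Ifngr2, a chain of the interferon gamma receptor, rose in both genotypes, by 0.97 in deficient mice (adjusted p = 1.00e-05, limma) and by 0.63 in wildtype mice (adjusted p = 0.00033). Socs3 and Socs1, feedback inhibitors of Janus kinase signalling, also rose in both, Socs3 by 1.18 and 0.96 and Socs1 by 0.61 and 0.41 in deficient and wildtype mice. Ifngr1 rose by 0.33 in deficient mice (adjusted p = 0.00941). Ifnar1, a chain of the type I receptor, differed by -0.13 in deficient mice (adjusted p = 0.182) and fell by 0.24 in wildtype mice (adjusted p = 0.0135). Il10rb was lower in both (-0.33 and -0.22) and Jak2 was lower in wildtype mice (-0.27).

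Of 11 measured genes that sense nucleic acids and induce interferon, 3 were higher and 1 lower in deficient mice, and 2 were higher and 3 lower in wildtype mice. The shares of all genes were 15.8% higher and 14.6% lower in deficient mice, and 19.6% higher and 17.1% lower in wildtype mice. Myd88, the adaptor of Toll-like receptors, rose by 0.53 and 0.44, and Tbk1, the kinase that activates IRF3, fell by 0.47 and 0.48 in deficient and wildtype mice. Irf5 and Irf3 were higher in deficient mice (0.38 and 0.24), Tlr9 was higher in wildtype mice (0.24), and Tlr4 and Tlr3 were lower there (-0.35 and -0.22). Of 9 measured MHC class I and loading genes, 3 were higher and 1 lower in deficient mice, and 2 were higher and 2 lower in wildtype mice. The wildtype counts were again near the shares of all genes. Psme1, a proteasome activator subunit, was higher in both (0.30 and 0.28), as was the chaperone Calr (0.40 and 0.24), and the peptide-trimming enzyme Erap1 was lower in both (-0.19 and -0.39). Pdia3 was higher in deficient mice (0.22) and H2-M3 lower in wildtype mice (-0.28).

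Of other genes known to be induced by interferon, 36 were measured. In deficient mice 6 of the 36 were higher and 6 lower after ozone, shares near the 15.8% and 14.6% of all genes. In wildtype mice 3 of the 36 were higher and 10 lower, where 19.6% of all genes were higher and 17.1% lower. Ifitm3, which blocks viral fusion, was higher by 0.42 and 0.36, the chemokine Cxcl10 by 0.56 and 0.44, and the helicase Mov10 by 0.38 and 0.39 in deficient and wildtype mice. Ifitm2 was higher in deficient mice (0.28). Tor3a was lower in deficient and wildtype mice (-0.49 and -0.71), as were Trim21, an intracellular antibody receptor (-0.54 and -0.59), and the nuclear body protein Sp100 (-0.52 and -0.66). Tdrd7 was lower in both as well (-0.41 in deficient and -0.38 in wildtype mice). Irgm2, a GTPase next in kind to Irgm1, and Gbp7 differed by -0.25 and -0.50 in deficient mice (adjusted p = 0.41 and 0.0896) and were lower (-1.01 and -1.08) in wildtype mice (adjusted p = 0.00185 and 0.00115).

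Sex was a term of the model, and 2 members differed between female and male mice over both genotypes: 1 higher, against 3.11% of all genes, and 1 lower, against 2.55% of all genes. Mx1, an antiviral GTPase, was higher in females by 0.20 ± 0.05 (adjusted p = 0.0244), at levels of 4.22 to 4.75 that reach down into the range of an absent transcript given above. Rsad2, which encodes the antiviral enzyme viperin, was lower in females (-0.75 ± 0.19, adjusted p = 0.0326). The Rsad2 call was lost on leaving out deficient ozone M1 or any 1 of the 8 wildtype arrays (adjusted p of 0.0548 to 0.0701), and the Mx1 call without deficient ozone F1, deficient air F1, wildtype ozone F2 or wildtype air M1 or F1 (0.0505 to 0.0547). The values of Rsad2 by sex within each genotype were compared after they had been seen.

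Rsad2 read 8.84, 8.41, 8.38 and 8.44 in deficient ozone mice and 8.73, 8.98, 9.15 and 8.60 in deficient air mice. It read 8.91, 9.13, 7.67 and 7.68 in wildtype ozone mice and 9.45, 9.36, 7.87 and 8.0 in wildtype air mice. The 4 wildtype females lay between 7.67 and 8.0 and the 4 wildtype males between 8.91 and 9.45, with no overlap, while deficient mice of both sexes lay between 8.38 and 9.15. Females differed from males by -0.10 ± 0.12 in deficient mice (adjusted p = 0.804) and were 2.65-fold lower in wildtype mice (-1.41 ± 0.12, adjusted p = 2.81e-05). All 3 probe sets of Rsad2 gave this in wildtype mice, at -1.41, -1.33 and -1.58. Rsad2 was the only member called there, where 0.783% of all genes were called higher and 0.686% lower in females. In deficient mice 0 members were called, where 0.121% of all genes were called higher and 0.194% lower.

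The difference between the genotypes in the sex difference of Rsad2 was 1.31 ± 0.17 (95% interval 0.95 to 1.67, adjusted p = 0.0229), and Rsad2 was the only gene called in that test, 0.00807% of all genes. The call was lost on leaving out any 1 of 9 arrays (deficient ozone M2, F1 or F2, wildtype ozone M2, F1 or F2, or wildtype air M1, F1 or F2) or the 3 air arrays together. Its values ran from 1.18 to 1.42 and its adjusted p from 0.00523 to 0.153 over the alternatives, while the wildtype difference passed in all 25 alternatives (-1.46 to -1.37). Cmpk2, the next protein-coding gene on chromosome 12, differed between females and males by 0.34 in deficient mice and by 0.19 in wildtype mice and did not pass.

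Genes of red blood cells differed between the sexes in both genotypes, unlike Rsad2. Of 10 measured, 2 were lower in females in deficient mice, where 0.194% of all genes were lower. In wildtype mice 5 were lower, where 0.686% of all genes were. Alas2, the first enzyme of heme synthesis in red cell precursors, was lower in females of both genotypes, at -1.01 in deficient mice (adjusted p = 0.00289) and -1.60 in wildtype mice (adjusted p = 1.59e-05). Slc4a1, the anion exchanger of red cells, was lower in wildtype females (-1.74, adjusted p = 0.00167). The summed intensities of the 10 genes were 3901, 3804, 2570 and 2628 in deficient ozone mice, 4926, 4471, 3370 and 3394 in deficient air mice, 4036, 4098, 1934 and 2231 in wildtype ozone mice and 4633, 5460, 2588 and 2583 in wildtype air mice. Neutrophil markers summed to 1761, 39815, 1574 and 1652 in wildtype ozone mice and 7384, 6178, 1903 and 2969 in wildtype air mice. Between females and males, 3 of the 6 neutrophil markers lay below 0 in deficient mice (median 0.05) and all 6 in wildtype mice (median -1.63), with 0 called by limma in each. Of the 8 macrophage markers, 5 lay below 0 in deficient mice (median -0.07) and 7 in wildtype mice (median -0.45), where 1 was called, Cd68 (-1.0). The part of these cells in the Rsad2 difference was not tested.

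**Figure D5:**
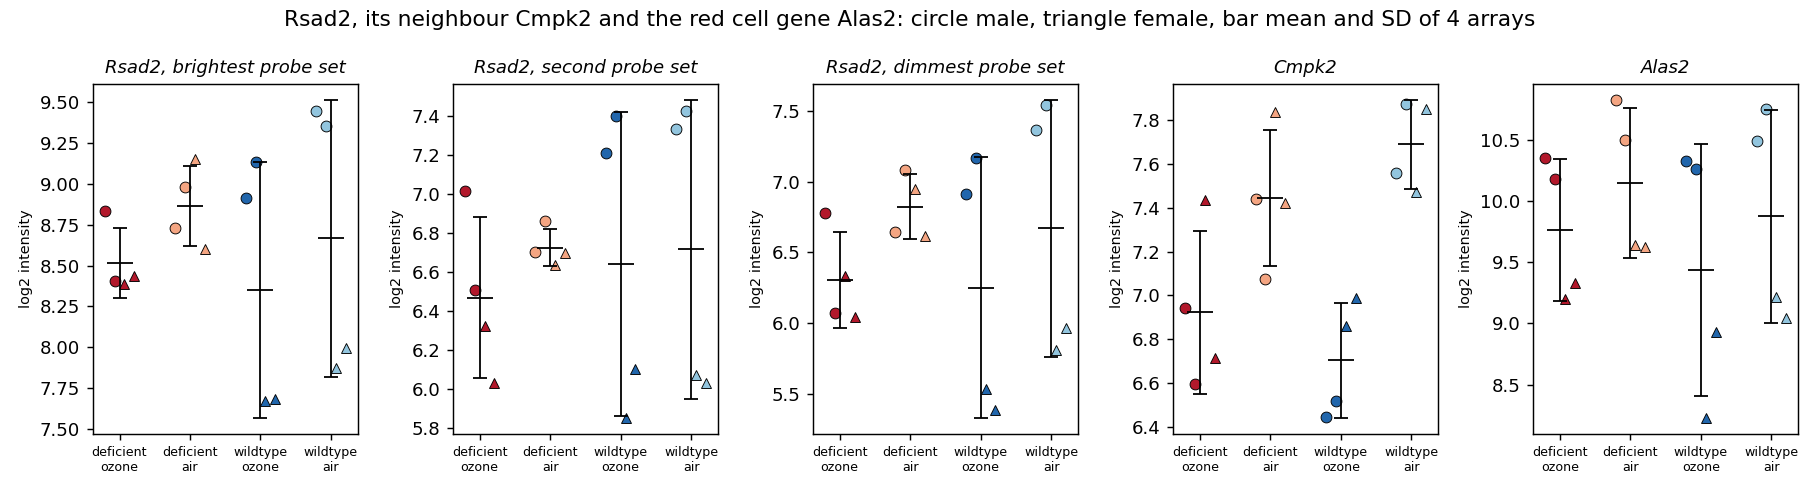
Log2 intensity of the 3 probe sets of Rsad2, of its neighbour Cmpk2 and of the red cell gene Alas2 in each mouse (circles males, triangles females), with the mean and SD of 4 mice per group as bars. Wildtype females lie below wildtype males in all 3 Rsad2 panels and for Alas2, which is also lower in deficient females.

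Over all 38 members the median difference between females and males was 0.26 in deficient mice, with 36 above 0 (94.7%, against 51.4% of all genes), and 0.04 in wildtype mice, with 21 above 0 (against 57.0% of all genes). In deficient mice 19 members had an unadjusted p under 0.05 for sex, against 12.9% of all genes. The largest of these was Ifit1, at 0.68 ± 0.25 (adjusted p = 0.259), followed by Irf7, at 0.58 ± 0.15 (adjusted p = 0.117). Each deficient group has 2 females, of which F1 was the higher for Ifit1 and Irf7 in ozone and in air. Without deficient ozone F2, 3 members passed (Gbp2, Gbp3 and Ifi47). Without the array labelled deficient air F2 1 passed (Irf7), and without the 3 air arrays 2 passed (Irf7 and Ifi35). Each of these settings left out a deficient F2 mouse and kept both deficient F1 mice. No member was gained without deficient ozone F1, without deficient air F1 or without both.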

How the data were processed

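Total RNA from the left lung of 16 mice was read on Affymetrix arrays of 22690 probe sets, 1 array per mouse. Per the submitters' processing notes the authors made the deposited intensity values with RMA. The version and settings of RMA were not stated there. The values are on a linear scale, and log2 was taken here. After leaving out 64 control probe sets, 20380 probe sets carried 1 gene symbol and gave 12393 genes, each by its brightest probe set. Differences were fitted with limma 3.58.1 in R 4.3.3 over all 16 arrays (4 groups of genotype and exposure and a sex term), with Benjamini-Hochberg adjustment over all genes. A second fit had a sex term per genotype; it and the lists of red cell, lung and Y-linked genes were added after values had been seen. The fit was tested on simulated data. With 4 arrays per group, their number limits the precision.

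The members and lists were chosen with earlier results of these data known. Values of every array are given for members called with a log2 difference of at least 0.5 in a comparison of exposure, genotype or their interaction, and for Ifit1, Irf7, Irf1, Stat2, Gbp2, Psmb8 and Tap1. Of each pathway list up to 4 called genes per direction with the smallest p were named, and Ifng, Ifnar1 and Adipoq whatever their result. Rsad2 and the genes of discordant probe sets were named after their values were seen. Alternatives changed the scaling, the filter on dim genes, the choice of probe set, the variance model, the terms, the arrays used and the thresholds. The tables held 0 columns of other samples. Promoters came from RefSeq (GRCm38.p6). Tables and figures were made with Python 3.11.15, pandas 2.3.3 and matplotlib 3.10.9.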

Additional observations from a re-analysis of the deposited data

Results flagged for a closer look

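In 9 of 152 groups of 4 mice tested (5.92%), 1 mouse stood apart from the other 3; chance flags about 1 group in 20. Deficient air F1 was the mouse in 4 of them, with a log2 intensity of 9.20 for Ifit1 (the next mouse of its group 7.84), 10.34 for Irf1 (next 10.1), 9.22 for Irf8 (next 8.95) and 6.23 for Dhx58 (next 5.97). Deficient ozone M1 stood high for Rsad2 at 8.84 (next 8.44), and deficient ozone F1 for Psmb10 at 10.46 (next 10.1). Wildtype ozone M1 stood low for Trim25 at 9.39 (next 9.62). Wildtype air F2 stood low for Stat2 at 7.0 (next 7.28), and wildtype air F1 stood high for Psmb9 at 9.35 (next 8.99).

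The sex difference of Rsad2 differed between deficient and wildtype mice by 1.31 ± 0.17 log2 units (SE, adjusted p = 0.0229, limma), in a test added after the values of Rsad2 were seen. Over its alternatives the adjusted p ran from 0.00523 to 0.153.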

How the results depend on the processing

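The number of members called after ozone was 9 in deficient mice and 11 in wildtype mice. In deficient mice it was 5 without the 3 air arrays, 1 among males alone, 3 among females alone, 3 at an adjusted p under 0.01 and 1 at a fold of at least 1.5, and 4 to 10 on leaving out 1 array. With the compared groups alone, Gbp3, Ifih1 and Cmpk2 were lost in deficient mice and Eif2ak2 was gained. In wildtype mice it was 17 members with the compared groups alone, 3 among females alone and 7 at a fold of at least 1.5, and 10 to 12 on leaving out 1 array. Deficient against wildtype mice in ozone and in air gave 0 members under all 32 alternatives, and the interaction of genotype and ozone 0 under all 31. Female against male mice gave 2 members, 1 with the dimmest 0.25 of genes left out, with a trend and robust prior, without the 3 air arrays, without both deficient F1 arrays or at a fold of at least 1.5, 4 with array weights, 5 without the 3 air arrays and deficient ozone F2, 0 at an adjusted p under 0.01, and 0 to 6 on leaving out 1 array. In wildtype mice it gave 1 under all 27. In deficient mice it gave 0, but 8 with array weights, 2 without the 3 air arrays, 4 without these and deficient ozone F2, and 0 to 3 on leaving out 1 array. The interaction of genotype and sex gave 1 member, 0 without the 3 air arrays, without these and deficient ozone F2, without both deficient F1 arrays or at an adjusted p under 0.01, and 0 or 1 on leaving out 1 array. Leaving out both deficient F1 arrays was chosen after seeing the data. Fewer arrays and stricter thresholds by construction leave less to call; for the other settings the cause was not tested. No single member's called value changed sign. With the replicate block 11 members passed in deficient mice and 13 in wildtype mice. Same-labelled mice are of 1 sex, and 18 of their 24 pairs correlated above 0.1 (-0.04 to 0.35). Within a sex the correlations were -0.15 to 0.13, and no label ties mice of different groups, so the numbers were not taken as pairs. Called differences of dim members such as Mx1 are limited by signal near that of an absent transcript.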
